A study of Mus musculus with 8 samples.

Results

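The ATF4 amino acid stress response genes are a set of 42 mouse genes chosen by name: ATF4 and its partner regulators, amino acid transporters, enzymes of amino acid and one-carbon metabolism, and cytosolic aminoacyl-tRNA synthetases with their export factor. All 42 were found among the 37605 gene entries of the table. Genes with a deposited value of 10 or more in no fewer than 2 libraries were tested, 20585 in all, of which 41 were members; Fgf21 was the member below this filter on low values. The cells were Ythdc1 conditional knockout mouse embryonic stem cells, male, derived from the inner cell mass of 129 mice and grown without feeders in serum and LIF medium supplemented with nonessential amino acids. Ythdc1 encodes a nuclear reader of the RNA mark N6-methyladenosine.

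There were 4 groups of 2 libraries each, and all carried the same conditional allele. Cells received either DMSO, the solvent control, or 4OHT (4-hydroxytamoxifen, 1 μg/ml) for 4 days. Every group was then held for 3 h in 100 μM DRB, which stops RNA polymerase II from moving into genes, and DRB was washed out. RNA made after the wash was marked with 1 mM 4sU for 0 or 8 min, purified through that label and sequenced (4sUDRB-seq), so the 8 min libraries hold RNA of the first minutes of resumed transcription and the 0 min libraries measure the background of the purification. The labels name neither the recombinase that 4OHT acts on nor the deleted part of Ythdc1. Since no cells without the conditional allele were among these groups, loss of Ythdc1 and exposure to 4OHT cannot be told apart. The ESC number is 1 for the 0 min samples and 2 for the 8 min samples in the titles, but each time has a column of either number in the table, so columns were assigned to groups only and a difference of line between the times cannot be told apart from time. Nothing states that the 2 libraries of a group came from separate cultures. P-values measure the spread between these libraries, which may be technical. The fit (limma) pools a gene's own spread with that of genes of similar level (its trend setting). A p-value therefore does not rest on that gene's own libraries alone.

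Cells short of amino acids, or with damaged folding in the endoplasmic reticulum, phosphorylate the initiation factor eIF2, which slows most translation while the ATF4 mRNA is translated better. ATF4 is a transcription factor that pairs with C/EBP family proteins on a composite DNA element, the C/EBP-ATF response element, and turns on genes that import amino acids, make serine, glycine, asparagine and proline, and charge tRNAs. Because ATF4 itself is largely set at translation, the transcription of its target genes is often used as a readout of the pathway.

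The letters TGATGNAA, a core form of that element, were searched on both strands (TTNCATCA on the opposite strand) in RefSeq promoter windows of GRCm38.p6 that run from 250 bases before to 50 bases after the start site. Windows of 34 of the 42 members were searched, and 13 of these (38.2%) held at least 1 match, 14 matches in all. Over all genes with a window, 1218 of 27024 (4.51%) held one. The members whose window held the letters and whose labelled RNA rose at 8 min were Chac1, Slc1a4, Trib3, Gars, Yars and Asns. Their matches are given as 30 bases of the gene's own strand, with the matched letters in capitals. For Chac1 the whole 250 bases before the start site are given, and for Stc2, whose labelled RNA rose by a similar factor, the same stretch shows no match to these letters.

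Chac1, chr2:119350992-119351241, plus strand: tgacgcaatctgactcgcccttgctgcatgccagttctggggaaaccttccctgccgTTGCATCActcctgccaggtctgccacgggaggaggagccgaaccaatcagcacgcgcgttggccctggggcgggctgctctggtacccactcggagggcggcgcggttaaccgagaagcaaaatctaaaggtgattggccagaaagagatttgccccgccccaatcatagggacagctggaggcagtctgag
Stc2, chr11:31370062-31370311, minus strand: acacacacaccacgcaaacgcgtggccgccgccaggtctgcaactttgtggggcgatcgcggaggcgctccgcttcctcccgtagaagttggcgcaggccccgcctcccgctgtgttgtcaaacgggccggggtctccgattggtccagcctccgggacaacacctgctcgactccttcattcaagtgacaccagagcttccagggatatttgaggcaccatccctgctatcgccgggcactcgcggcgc
Slc1a4, chr11:20332699-20332728, minus strand: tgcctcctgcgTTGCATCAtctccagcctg
Trib3, chr2:152344028-152344057, minus strand: ttagctcaggtTTACATCAgccgggcgggg
Gars, chr6:55037960-55037989, plus strand: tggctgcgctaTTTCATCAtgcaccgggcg
Yars, chr4:129189895-129189924, plus strand: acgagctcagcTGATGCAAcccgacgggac
Asns, chr6:7693214-7693243, minus strand: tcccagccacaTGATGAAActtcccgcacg

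The same 8 letters thus occur in members of each class, a stress effector, a transporter, an enzyme and 2 tRNA synthetases among those shown, and on either strand. Counted from the start site, with the first transcribed base as +1 and no position 0, the first matched base lay at -193 in Chac1, -23 in Asns, -30 in Gars and -4 in Slc1a4. It lay just past the start site in Yars (4) and Trib3 (15). Positions refer to the annotated start site of the window. For Yars, Vldlr, Slc7a11 and, by a few bases, Pck2 that site lies inside the annotated gene span, not at its outer end. Letters alone do not show that a protein binds there.

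**Figure D1:**
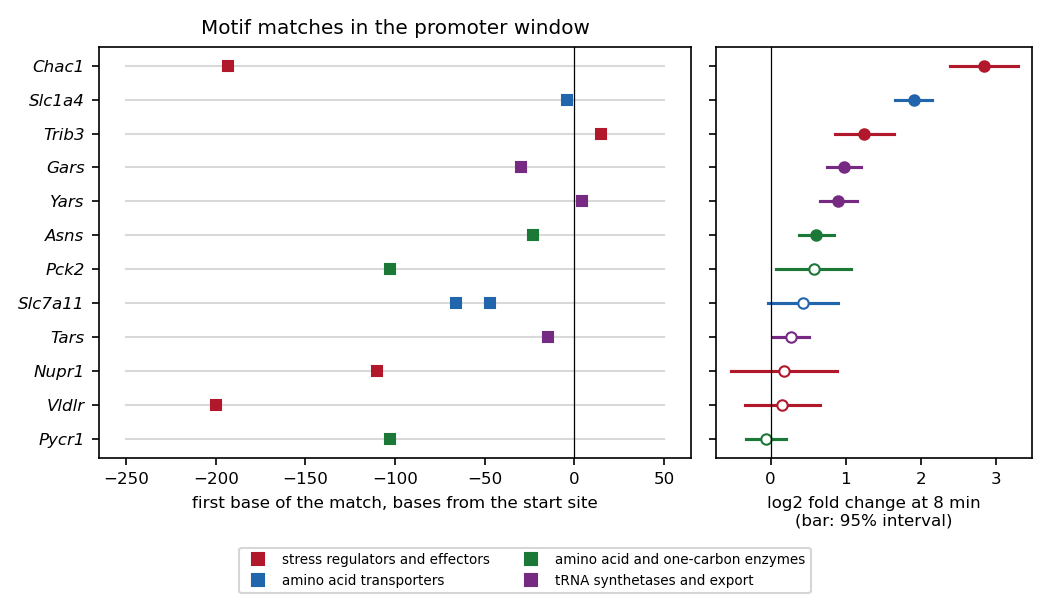
Left, positions of the letters TGATGNAA, either strand, in the promoter windows of the 12 tested members that held them; the x axis is the distance in bases from the annotated start site and each line is 1 member. Right, the log2 change of each at 8 min on scaled values with its 95% interval, filled where it passed; the filled points are the 6 members from Chac1 (2.84) down to Asns (0.61), and Pycr1, at -0.06, is positive on the deposited scale.

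Depth at 8 min ran from 93.1 M to 134 M reads per library, and at 0 min from 46.3 M to 61.4 M. Ythdc1 (chr5:86803980-86836659) read 2933 and 3584 in the 2 DMSO libraries and 2036 and 2460 in the 2 4OHT libraries at 8 min after scaling, a log2 change of -0.53 ± 0.13 (SE; adjusted p = 0.00259, limma), and this call was lost without 4OHT library 1 (adjusted p = 0.169). At 0 min its log2 change was 0.24. On the deposited scale its 8 min log2 change was 0.93 (adjusted p = 0.17), so the direction depends on the scaling. For the cell type markers, the shares to set beside the counts are those of all genes tested at 8 min, 18.6% that rose and 16.7% that fell. All 10 embryonic stem cell markers passed the filter on low values, of which 1 rose and 4 fell. Of 8 markers of 2-cell-like cells, which are rare cells in such cultures that resemble the 2-cell embryo, 4 were tested and all 4 rose, with summed scaled values of 27.4 and 29.9 in DMSO and of 286 and 275 in 4OHT. These 4 reached the filter value of 10 in 4OHT libraries only. They were tested because they were high there, so the count that rose was set by the filter. Of 10 fibroblast markers, 3 were tested and 2 of them fell. The 3 tested summed to 48.5 and 65.1 in DMSO and to 22.9 and 31.4 in 4OHT. Of 3 trophoblast markers tested 1 rose and 1 fell, and of 3 primitive endoderm markers 1 rose. The part of these cell type markers in the members' values was not tested, and in bulk RNA a change in the share of a cell type and a change in RNA per cell cannot be told apart.

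The comparison of 4OHT with DMSO at 8 min asks which of these genes were transcribed more, or less, than the typical gene in the first minutes after release. The 4 libraries of 8 min were set to a common scale by the median of their gene-wise ratios (scaled values), and changes are log2(value + 1) differences tested with limma over all 20585 genes. Labelled RNA of 20 members rose relative to the median gene, 3 fell and 18 did not pass. Among all genes tested, 18.6% rose and 16.7% fell. The median log2 change was 0.32 over the 41 members and -0.00 over all genes, and 33 members lay above 0 (49.9% of all genes did). In 28 members both 4OHT libraries lay above both DMSO libraries and in 8 both lay below, against 33.6% and 33.7% of all genes. A rise of at least 1 on the log2 scale was called for 8 members, Stc2, Chac1, Slc1a4, Phgdh, Trib3, Mthfd2, Cars and Slc7a5, and for 4.87% of all genes. These shares describe the list, and no test of it as a set was made. The calls depend on the settings, for members and other genes alike. With all 8 libraries scaled and fitted together, Stc2 and Slc1a4 were higher and no member was lower, and they were the 2 higher genes of all 20585, of which 29 were lower. With no filter on low values 0 members and 0 of 36868 genes passed, and with spike-in scaling 0 members passed, while 7 genes were higher and 4 lower.

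**Figure D2:**
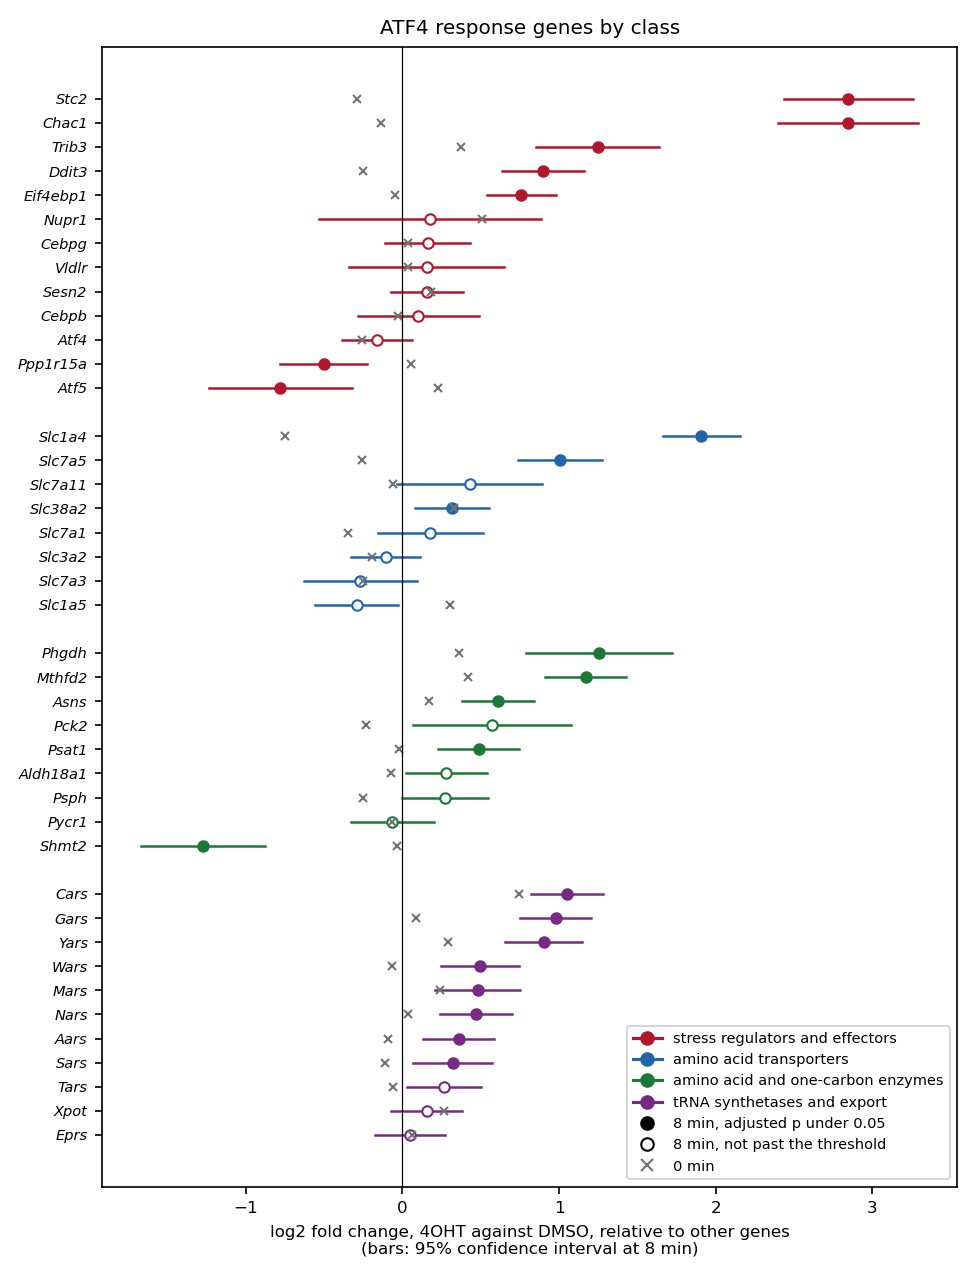
Log2 change of each of the 41 tested members, 4OHT against DMSO at 8 min on values scaled to the median gene, with 95% intervals from limma (2 libraries per group), ordered within the 4 classes. Of the members, 20 lie above 0 and pass, and 3 (Ppp1r15a, Atf5 and Shmt2) lie below 0 and pass. On the deposited scale the log2 changes of those 3 are above 0 and do not pass.

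Among the regulators and effectors of the stress response, 5 of the 13 tested rose, 2 fell and 6 did not pass, with a median log2 change of 0.16. Transcription of Atf4 itself did not pass: it read 640 and 614 in DMSO and 545 and 577 in 4OHT, a log2 change of -0.16 (95% interval -0.38 to 0.06, adjusted p = 0.261). Both 4OHT libraries were below both DMSO libraries, but the interval includes 0. On the deposited scale its log2 change was 1.31 (adjusted p = 0.0455), close to the 1.43 of the median gene.

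Ddit3 encodes CHOP, a C/EBP family factor that acts downstream of ATF4. It read 152 and 141 in DMSO and 291 and 258 in 4OHT, and so rose 1.86-fold (log2 0.90 ± 0.13, adjusted p = 7.79e-06). Trib3 encodes a pseudokinase that is induced by ATF4 and CHOP and restrains them. It read 33.3 and 31.1 in DMSO against 84.0 and 72.1 in 4OHT, a 2.38-fold rise (log2 1.25 ± 0.19, adjusted p = 2.18e-05). For both genes the lower 4OHT library lay clearly above the higher DMSO library.

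The largest changes of the 41 members were those of Stc2 and Chac1. Stc2 encodes stanniocalcin 2, a secreted glycoprotein, and went from 16.0 and 21.6 in DMSO to 156 and 125 in 4OHT. Its rise was 7.19-fold (log2 2.85 ± 0.20, 95% interval 2.43 to 3.26, adjusted p = 5.24e-10). Chac1 encodes an enzyme that breaks down glutathione, and went from 11.9 and 13.9 to 108 and 90.0. Its rise was 7.18-fold (log2 2.84 ± 0.22, 95% interval 2.4 to 3.29, adjusted p = 1.26e-09). The groups were far apart for both genes. On deposited values, both genes reached the filter value of 10 in the 4OHT libraries of 8 min. Elsewhere they reached it only in DMSO library 2 of 8 min. They were thus tested because they were high in 4OHT at 8 min. A gene as low elsewhere that did not rise would not have been tested, so the filter favoured a rise at this level.

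Eif4ebp1 encodes 4E-BP1, which holds back cap-dependent translation when it binds eIF4E. It read 887 and 855 in DMSO and 1488 and 1462 in 4OHT, a 1.69-fold rise (log2 0.76 ± 0.11, adjusted p = 8.56e-06) with little spread in either group. In the opposite direction, Ppp1r15a encodes GADD34, the inducible phosphatase subunit that removes the phosphate from eIF2. It read 216 and 187 in DMSO and 131 and 154 in 4OHT, a log2 change of -0.50 ± 0.13 (adjusted p = 0.00576). Its call was lost without 4OHT library 1 (adjusted p = 0.0952), and it was 0.96 on the deposited scale. Of its length, 21.8% lies within Tulp2, which had a log2 change of -0.47 (adjusted p = 0.00597); whether reads were counted by strand is not given in the sources used here.

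Atf5, a close relative of ATF4 that is likewise controlled at translation, read 46.1 and 41.7 in DMSO and 27.2 and 23.2 in 4OHT. Its log2 change was -0.78 ± 0.22 (adjusted p = 0.00854), which did not pass without 4OHT library 2 (adjusted p = 0.0772) and was 0.65 on the deposited scale. Cebpb, a C/EBP partner of ATF4, read 54.6 and 48.3 against 52.2 and 58.4, with overlapping groups and a log2 change of 0.10 (adjusted p = 0.706). Nupr1, a small stress-induced chromatin protein, read 11.1 and 7.96 against 10.6 and 10.9, also overlapping, with a log2 change of 0.17 and a wide interval of -0.53 to 0.88. Cebpg, Sesn2 (an inhibitor of mTORC1 signalling) and Vldlr (a lipoprotein receptor) each had a log2 change of 0.16 and did not pass. Fgf21, a secreted metabolic hormone, had at most 24 reads in any library and was read in 1 library of each group, so it was not tested.

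Of the 8 amino acid transporters, 3 rose, none fell and 5 did not pass, with a median log2 change of 0.25. Slc1a4 encodes ASCT1, a carrier of alanine, serine and cysteine. It read 224 and 184 in DMSO and 802 and 730 in 4OHT, a 3.75-fold rise (log2 1.91 ± 0.12, adjusted p = 8.37e-11), and had the smallest adjusted p of the 41 members. Slc7a5 encodes LAT1, the importer of leucine and other large neutral amino acids. It read 642 and 489 in DMSO and 1276 and 996 in 4OHT, a 2.01-fold rise (log2 1.01 ± 0.13, adjusted p = 2.91e-06). The groups of both genes did not overlap, although library 1 was above library 2 within each group of Slc7a5.

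Slc38a2, which encodes the glutamine and alanine carrier SNAT2, rose 1.25-fold, from 1964 and 1865 to 2459 and 2314 (adjusted p = 0.0329). That call was lost without DMSO library 2 (adjusted p = 0.0652), without 4OHT library 1 (0.310) or without 4OHT library 2 (0.139). Slc3a2, the heavy chain that LAT1 and the cystine carrier need to reach the membrane, read 1068 and 1125 in DMSO and 1046 and 990 in 4OHT. Its log2 change was -0.11 (95% interval -0.33 to 0.12), so the rise of its partner Slc7a5 was not seen for it. Slc7a11, the cystine carrier xCT, read 26.4 and 26.7 against 34.4 and 38.0, with groups apart but a log2 change of 0.43 that did not pass (adjusted p = 0.142). The other members of the class were Slc7a1 (log2 0.18), Slc7a3 (-0.27) and Slc1a5 (-0.29), and none of the 3 passed; the last 2 are 1.18 and 1.17 on the deposited scale. Slc7a1 and Slc7a3 are carriers of cationic amino acids, and Slc1a5 encodes the glutamine carrier ASCT2.

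Of the 9 enzymes, 4 rose, 1 fell and 4 did not pass, with a median log2 change of 0.49. In serine synthesis, Phgdh encodes the first enzyme of the pathway. It read 31.9 and 21.8 in DMSO and 75.2 and 54.9 in 4OHT, a 2.39-fold rise (log2 1.25 ± 0.22, adjusted p = 0.000145). Psat1, the next enzyme, read 225 and 189 against 304 and 276, a 1.4-fold rise (adjusted p = 0.00402) that did not pass without 4OHT library 1 (adjusted p = 0.0578). Psph, the last enzyme, had a log2 change of 0.27 (adjusted p = 0.118). The groups of Phgdh and Psat1 did not overlap, and the size of the change was larger for the first enzyme; the difference between these genes was not tested.

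In mitochondrial one-carbon metabolism, 2 enzymes that act in succession on serine carbon moved in opposite directions. Mthfd2, a folate dehydrogenase and cyclohydrolase, read 140 and 148 in DMSO and 351 and 302 in 4OHT, a 2.25-fold rise (log2 1.17 ± 0.13, adjusted p = 1.78e-07). Shmt2, the mitochondrial enzyme that splits serine into glycine and a one-carbon unit, read 81.6 and 74.8 in DMSO and 29.0 and 34.9 in 4OHT. That is a log2 change of -1.27 ± 0.19 (adjusted p = 1.99e-05), a fold of 0.415 relative to the median gene. On the deposited scale Shmt2 was at 0.17 and Mthfd2 at 2.63, so the sign of Shmt2 depends on the scaling. Between the scales the values of a library differ by a constant factor, which shifts the log2 changes of all genes nearly alike. The order of these genes is thus kept by construction.

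Asns encodes asparagine synthetase, a classic target of ATF4. It read 399 and 373 in DMSO and 619 and 562 in 4OHT, a 1.53-fold rise (log2 0.61 ± 0.11, adjusted p = 0.000168) with groups well apart. Of the remaining enzymes, Pck2, the mitochondrial enzyme that makes phosphoenolpyruvate, had a log2 change of 0.57 (adjusted p = 0.0701). The proline synthesis enzymes Aldh18a1 and Pycr1 had log2 changes of 0.28 (adjusted p = 0.0823) and -0.06 (adjusted p = 0.736), the latter 1.4 on the deposited scale.

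Aminoacyl-tRNA synthetases join each amino acid to its tRNA, and Xpot carries tRNAs out of the nucleus. Of these 11 genes, 8 rose, none fell and 3 did not pass, with a median log2 change of 0.47; in all 11 both 4OHT libraries were above both DMSO libraries. Cars, the cysteine enzyme, read 468 and 423 in DMSO and 977 and 870 in 4OHT, a 2.07-fold rise (log2 1.05 ± 0.11, adjusted p = 1.61e-07). Gars, the glycine enzyme, read 753 and 780 against 1590 and 1439, a 1.97-fold rise (log2 0.98 ± 0.11, adjusted p = 3.2e-07). Yars, the tyrosine enzyme, read 200 and 182 against 378 and 338, a 1.87-fold rise (log2 0.90 ± 0.12, adjusted p = 4.11e-06). For these 3 genes the spread within a group was small beside the distance between groups.

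The other 5 synthetases that passed moved less, by log2 changes of 0.32 to 0.50: Wars, Mars, Nars, Aars and Sars, for tryptophan, methionine, asparagine, alanine and serine. Of these, Wars (adjusted p = 0.00258) passed with each library left out. Mars was lost without DMSO library 1 (adjusted p = 0.0520) or 4OHT library 1 (0.0705), and Nars without 4OHT library 1 (0.0810). Aars was lost without DMSO library 1 (0.0662), 4OHT library 1 (0.0812) or 4OHT library 2 (0.117). Sars was lost without DMSO library 2 (0.202), 4OHT library 1 (0.164) or 4OHT library 2 (0.141). Tars (log2 0.27, adjusted p = 0.0726), Xpot (0.16) and Eprs (0.05) did not pass; Tars charges threonine tRNA and Eprs both glutamate and proline tRNAs. Over the whole set, 15 of the 23 called members passed with each 8 min library left out in turn, 14 that rose and 1, Shmt2, that fell.

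**Figure D3:**
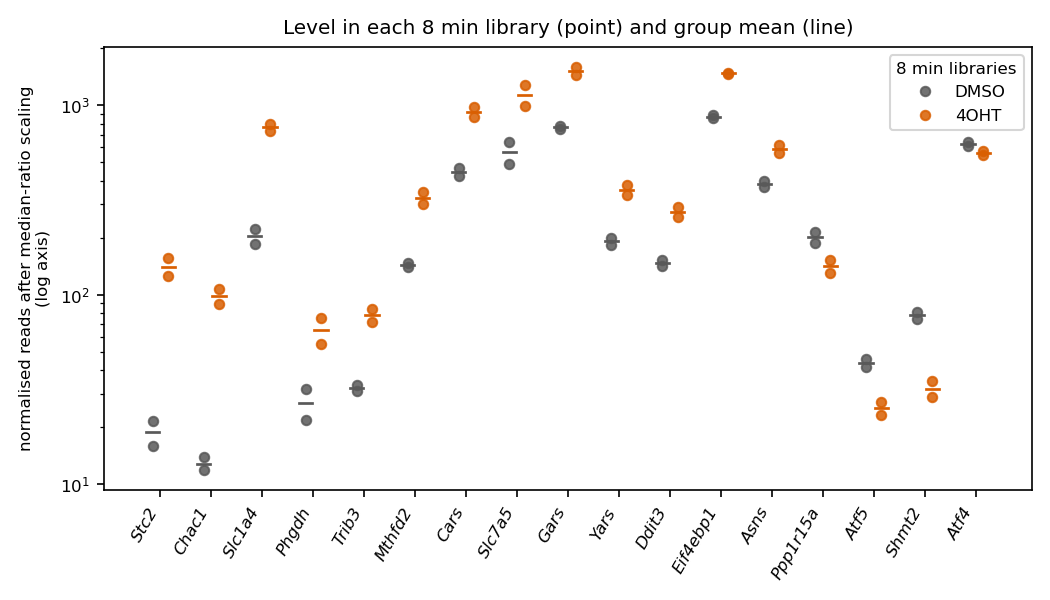
Scaled values (log axis) in each of the 4 libraries of 8 min for the 16 called members with an absolute log2 change of at least 0.5 and for Atf4; each point is 1 library and each line the mean of 2. The groups do not overlap for the genes plotted. The widest gaps are those of Stc2 and Chac1, where 4OHT libraries sit between 90.0 and 156 and DMSO libraries between 11.9 and 21.6. Ppp1r15a, Atf5, Shmt2 and Atf4 are lower with 4OHT on this scale. On the deposited scale their log2 changes are above 0, where Atf4 passed and the others did not.

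Levels were compared between genes only per kilobase of annotated gene span, as mean scaled values at 8 min. In DMSO, Atf4 was at 265 per kb, Slc38a2 at 155 and Sesn2 at 72.2, while Stc2 was at 1.77, Phgdh at 1.00, Vldlr at 0.692 and Slc7a11 at 0.198. In 4OHT, Chac1 stood at 32.0 per kb (from 4.17) and Stc2 at 13.2, still below Atf4 at 237. Thus the members with the largest folds started from low levels, and the most transcribed ones, Atf4 and Slc38a2, moved by log2 changes of -0.16 and 0.32. Since a polymerase covers only part of a long gene in 8 min, a level per kb of span understates the rate of long genes.

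The length of a gene also went with the calls. Of the 11 tested members under 10 kb, 3 rose and 3 fell (median log2 0.10); of the 20 from 10 to 30 kb, 13 rose and none fell (0.41); of the 10 of 30 kb or more, 4 rose and none fell (0.36). Over all genes tested with coordinates, 8.75% of those under 10 kb rose and 20.8% fell, against 18.7% and 14.8% from 10 to 30 kb, and 27.9% and 14.4% at 30 kb or more. All 3 members that fell, Shmt2, Atf5 and Ppp1r15a, are under 10 kb, and so are Chac1, Trib3 and Ddit3, which rose. The part of length in the members' changes was not tested.

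The promoter letters can be set beside the changes as a description. Of the 12 tested members whose window held TGATGNAA, 6 rose and none fell, with a median log2 change of 0.59 and a range of -0.06 (Pycr1) to 2.84 (Chac1). Of the 21 tested members with a window but without the letters, 8 rose and 3 fell, with a median of 0.18 and a range of -1.27 (Shmt2) to 2.85 (Stc2). Members with the letters thus included ones that did not pass, such as Nupr1, Vldlr and Slc7a11, and the member with the largest change had none. Over all genes tested, 18.6% rose and 16.7% fell. The letters were held by 369 of the 12623 tested genes with a window (2.92%), and calls among those outside the members were not counted. Whether members with and without the letters differ was not tested.

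The values as the authors deposited them carry a different scale. On that scale, with all 8 libraries in the fit, 36 of the 41 members were higher with 4OHT at 8 min, none was lower, and the median log2 change was 1.79. However, 58.8% of all genes tested were higher and 0.131% lower, and the median gene itself stood at 1.43, so the members' counts stand on a shift of most genes. Without DMSO library 1 or without 4OHT library 2 at 8 min, 3 members were called higher, Chac1, Stc2 and Slc1a4, and the count over all genes dropped likewise, from 12103 to 301 and 241. As in the scaled values, Stc2 (4.26), Chac1 (4.23) and Slc1a4 (3.37) were the highest of the 41 members and Shmt2 (0.17) was the lowest. That order is no separate result, since the scales differ by a constant factor per library.

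At 0 min the question is whether the members already differed in the background RNA. No member passed (0 of 41 in limma, 0 with edgeR and 0 with DESeq2, and 0 at an unadjusted p under 0.05), and 0% of all genes passed in either direction. The median log2 change of the members was -0.03, and 19 of them lay above 0 (48.2% of all genes did). In 1 member, Slc38a2, both 4OHT libraries lay above both DMSO libraries, and in 3, Stc2, Slc1a4 and Slc7a1, both lay below, against 9.57% and 9.06% of all genes. Slc1a4 read 39.8 and 46.7 in DMSO and 24.9 and 25.6 in 4OHT at 0 min, a log2 change of -0.75 (95% interval -1.60 to 0.11), and Stc2 read 7.43 and 6.95 against 6.26 and 5.18 (log2 -0.29). Chac1 read 0.59 and 4.03 against 1.13 and 2.12, near the floor of the measurement. The highest 0 min log2 change of the members was that of Cars, 0.74 (95% interval -0.65 to 2.13). It read 32.1 and 28.4 in DMSO and 29.7 and 87.6 in 4OHT, so that change rests on 4OHT library 2. The libraries of 0 min varied more: the median SD of log2 values within groups was 0.43 over the members at 0 min and 0.12 at 8 min. The intervals at 0 min included 0 for each of the 23 members called at 8 min.

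The difference between the 8 min and the 0 min change was tested in 1 fit over all 8 scaled libraries. It was above 0 in 29 of the 41 members, with a median of 0.34, and in 43.6% of all genes, with a median of -0.08. None passed after adjustment with limma, nor did any of all genes tested (0% in either direction), and edgeR called 0 members. At an unadjusted p under 0.05 there were 6 members, Slc1a4 (difference 2.57, unadjusted p = 1.69e-05, adjusted p = 0.320), Stc2 (3.01, adjusted p = 0.526), Chac1 (2.79, adjusted p = 0.746), Gars, Slc7a5 and Eif4ebp1, all with a difference above 0. Of all genes, 2.43% had such a p with a difference above 0 and 3.87% with one below. For Cars, called at 8 min, the difference was 0.21. With DESeq2 on the recovered reads 2 members passed, Slc1a4 (adjusted p = 5.28e-12) and Stc2 (2.04e-06), among 37 higher and 127 lower of all genes. A change at 8 min beyond that at 0 min was therefore not established by limma for any single member, and comparing the rises at 8 min with their absence from the calls at 0 min is not a test of that difference.

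In DMSO, 39 of the 41 members had higher deposited values at 8 than at 0 min, with a median ratio of 3.52 against 2.48 over all genes. The ratio was 22.8 for Sesn2, 19.5 for Ppp1r15a and 19.2 for Atf5. It was under 2 for 8 members, of which 4 were called: Phgdh (1.35), Psat1 (1.36), Shmt2 (1.36) and Stc2 (1.84). On the deposited scale, the changes of these 4 thus start from DMSO values close to the 0 min background. The ratio was also low for Nupr1 (1.17) and Slc7a1 (1.46). It was below 1 for Vldlr (0.560) and Pck2 (0.541), whose deposited 8 min values did not exceed that background. These ratios rest on divisors of unstated basis and may differ on another scale. Spike-ins were 0.120% and 0.618% of reads in the DMSO libraries at 0 min, and 0.0271% and 0.0674% at 8 min.

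Other genes of the pathway give the frame for these values. Of the 23 further ATF4 targets tested, 14 rose and 1 fell at 8 min, with a median log2 change of 0.48. Among all genes tested, 18.6% rose and 16.7% fell. Like the members, these lists were chosen with earlier results of these data known, so they are not an independent check. Herpud1, which takes part in the degradation of misfolded proteins at the endoplasmic reticulum, rose by a log2 change of 2.49 (adjusted p = 8.11e-12), the mitochondrial folate enzyme Aldh1l2 by 1.68 (1.13e-06) and Cth, the last enzyme of cysteine synthesis, by 1.16 (5.3e-07). Of the 16 genes for eIF2, its exchange factor, its kinases and their regulators, 3 rose and 3 fell (median -0.21). Eif2ak3, which encodes the endoplasmic reticulum stress kinase PERK, rose by 0.91 (1.95e-06) and Eif2ak1, the kinase HRI, by 0.87 (1.34e-05), while Gcn1l1, which activates the amino acid sensor GCN2, had a log2 change of -0.72 (2.08e-05).

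Related gene families outside the members were also measured, and their differences from the members were not tested. Of the 10 other cytosolic synthetases, 2 rose and 3 fell (median -0.17), and of the 16 mitochondrial synthetases, 3 rose and 1 fell (-0.09). Of the 13 other one-carbon enzymes, 2 rose and 2 fell (-0.10), and of the 17 other amino acid transporters, 3 rose and 3 fell (0.24, beside 0.25 for the member transporters). Of the 13 endoplasmic reticulum chaperones and related genes, 3 rose and 3 fell (-0.15). Hspa5, the chaperone BiP and a common marker of the unfolded protein response, had a log2 change of -0.27 (adjusted p = 0.0674), Edem1 one of 0.77 and Manf one of -0.54. The signs of these negative values, like those of the members, are relative to the median gene.

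**Figure D4:**
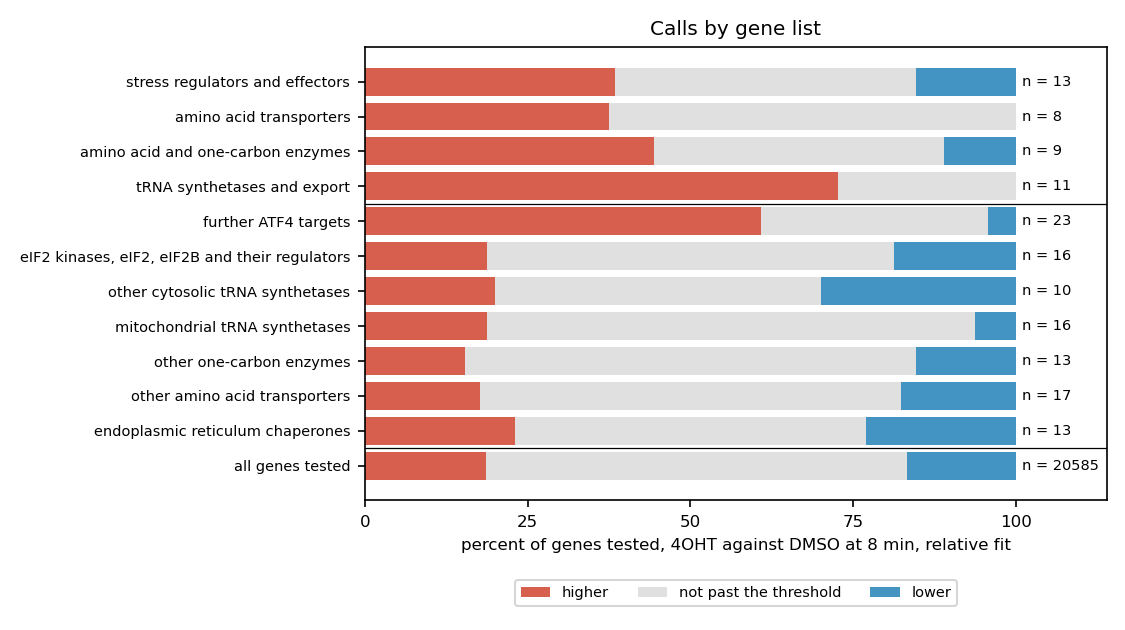
Share of tested genes that rose and fell at 8 min (4OHT against DMSO, scaled values, limma, adjusted p under 0.05) in the 4 classes of members, in the other gene lists and over all 20585 genes tested. Among all genes 18.6% rose and 16.7% fell; 8 of the 11 tRNA synthetase and export members rose.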

How the data were processed

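Labelled RNA was measured by 4sUDRB-seq in 8 libraries. The build mm10 and the tools STAR 2.7, Bowtie2 and bcl2fastq are listed per the submitters' processing notes; the tools' roles, the counting rules and the strand setting are not given in the sources used here. The authors deposited 1 table of normalised signal per gene, not whole numbers. In each library 100% of values were whole reads (within 0.01) after multiplication by 1 divisor of that library, 8.095 to 29.49; what the divisors rest on is not stated, so changes on the deposited scale and relative to the median gene are both given. Of 38971 entries, 60 were spike-ins and 1306 repeats, structural RNAs or others, left out of the tests. Groups follow the sample titles.

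From these values, log2(value + 1) was tested with limma 3.58.1 (R 4.3.3, empirical Bayes with trend) after median-ratio scaling of the 4 libraries compared, for 8 min and for 0 min, and over all 8 libraries for the deposited scale and for the difference of both effects. P-values were adjusted (Benjamini-Hochberg) over 20585 genes, threshold 0.05. On recovered reads, edgeR 4.0.16 called 3703 genes higher and 3366 lower at 8 min and DESeq2 1.42.0 called 3709 and 3402, against 3825 and 3440 with limma. Other choices tried were pseudocounts, filters, the trend, robust fitting, quantile normalization, a replicate block, each library left out, and spike-in scaling, which was added after seeing the data. The tests were run on simulated counts with a fixed spread at each time and independent libraries. That check does not cover the settings in which the calls were lost.

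The members and gene lists were chosen with earlier results of these data known. Values per library are printed for called members whose groups do not overlap with an absolute log2 change of at least 0.5, for Atf4, Asns, Psat1, Slc7a11, Nupr1, Fgf21, Cebpb and Ythdc1, and for genes added after their values were seen (Slc38a2 and Slc3a2). Other lists name up to 3 genes of smallest p; Hspa5 was added. Intervals cover these libraries only. The promoter window of 1 member is not reported here.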

Additional observations from a re-analysis of the deposited data

How the results depend on the processing

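The 8 min comparison on scaled values had 20 members higher and 3 lower. All 23 were called again with each of both pseudocounts, robust fitting, edgeR, DESeq2 and the replicate block. Quantile normalization called 22 again. A filter of at least 100 left 32 members to test and called 19 again. Leaving out 1 library gave 14 to 20 higher and 2 to 4 lower. Counts over all genes follow each member count in brackets (main 3825 higher, 3440 lower). Without the trend 13 were higher (2239); with all 8 libraries in 1 fit 2 were higher (2; Stc2 and Slc1a4) and 0 lower (29); without a filter 0 were higher (0) and 0 lower (0); on values as deposited 34 were higher (12277) and 0 lower (31). With spike-in scaling, chosen after seeing the data, 0 were higher (7) and 0 lower (4). The cause was not tested. On the deposited scale (36 higher), leaving out 1 library gave 3 to 37 (all genes 241 to 14319) and quantile normalization 2 (14; Stc2 and Slc1a4). For the difference of the 8 and 0 min changes (0 higher), DESeq2 called 2 (37; Stc2 and Slc1a4) and values as deposited 3 (79; these and Chac1). On values as deposited, log2 changes turned to 1.31 (Atf4), 0.65 (Atf5), 0.96 (Ppp1r15a), 1.36 (Slc3a2), 1.17 (Slc1a5), 1.18 (Slc7a3), 0.17 (Shmt2), 1.4 (Pycr1) and 0.93 (Ythdc1). Spike-in scaling turned Slc3a2 to 0.022 and Pycr1 to 0.064 (median of all genes 0.12), and the fit of all 8 libraries turned Eprs to -0.032. Leaving out 1 library moved Nupr1 between -0.041 (without DMSO library 2) and 0.397, Vldlr between -0.010 and 0.323 and Cebpg between -0.035 and 0.359 (both lowest without DMSO library 1), and Slc7a1 between -0.0053 (without 4OHT library 1) and 0.363.

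The libraries share only a number: deviations of same-numbered libraries correlated at 0.09 at 8 min and 0.47 at 0 min. With the replicate block, 21 members were higher and 4 lower at 8 min (Aldh18a1 and Slc1a5 added), 39 were higher on the deposited scale, and none was called at 0 min or for the difference. With 2 libraries per group, the wide intervals at 0 min limit what could be detected there.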
